A study of Mus musculus with 5 samples.

Results

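miR-21 and miR-22 were measured as 4 mature miRNAs, the 5p and 3p arms of each hairpin, in mouse bone marrow-derived dendritic cells (BMDCs). They were taken by name among the 1122 mouse miRNAs on the array, as mmu-miR-21-5p, mmu-miR-21-3p, mmu-miR-22-3p and mmu-miR-22-5p, with no use of their signals. The cells came from bone marrow of the C3H/HeJ strain, which carries a defective lipopolysaccharide receptor (Tlr4), were grown with rmGM-CSF and rmIL-4 and were selected for CD11c on magnetic beads. All 5 samples were of this kind. Flagellin (FliC), the bacterial protein sensed by Toll-like receptor 5, was given at 100 ng/mL for 24 h (3 arrays), and the mock group received medium alone for 24 h (2 arrays). The question was whether this stimulus moved either miRNA, either arm of a hairpin against the other, or any of their probes. The labels do not say whether replicates were separate cultures or mice, so the p-values measure the spread between these samples, which may be technical.

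A miRNA hairpin is cut into a duplex whose strands are the 5p and the 3p arm. One strand, the guide, is kept by an Argonaute protein and pairs with messenger RNAs mainly through its seed, bases 2 to 8, while the passenger strand is mostly degraded. The guides of these hairpins are miR-21-5p and miR-22-3p. miR-21 is abundant in myeloid cells and is known to repress Pdcd4 and Il12a, and miR-22 is known to act in blood stem cells and dendritic cells.

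The mature sequences show 4 arms with 4 different seeds, the part that decides which messages an arm can pair with. They are from RefSeq (GRCm38.p6), which held all 4 arms among 1679 mature names. The array writes miR-21 without the letter that RefSeq uses (miR-21a). Each sequence is given 5′ to 3′ with the seed in capitals.
miR-21-5p: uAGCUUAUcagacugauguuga
miR-21-3p: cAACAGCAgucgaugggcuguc
miR-22-3p: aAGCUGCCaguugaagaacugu
miR-22-5p: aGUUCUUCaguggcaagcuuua
All 4 arms are 22 nt long. Both hairpins lie on chromosome 11 (GRCm38.p6). Mir21a is on the minus strand inside the span of the protein-coding gene Vmp1, with its 5p arm at chr11:86584120-86584141 and its 3p arm at chr11:86584082-86584103. Mir22 is on the plus strand inside the span of its long non-coding host gene Mir22hg, between Wdr81 and Tlcd2, with its 5p arm at chr11:75463734-75463755 and its 3p arm at chr11:75463772-75463793. Whether these positions are exonic or intronic was not analysed here. Among the 1679 mature names of the RefSeq table, the seed of miR-21-5p is shared by miR-21c alone, which is not on the array under that name. No other of these names has the seed of the other 3 arms. Mouse miRNAs missing from that table were not searched.

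The array reads each arm with DNA probes that pair from its 3′ end. The longest probe of each arm is given 5′ to 3′ because its length decides how much of the seed is read. Capitals mark the bases it has beyond the shortest probe of the same arm.
miR-21-5p: tcaacatcagtctgataagC
miR-22-3p: acagttcttcaactggcaG
miR-22-5p: taaagcttgccactgaagA
miR-21-3p: gacagcccatcgACT
The probes of miR-21-5p (19 and 20 nt) paired with bases 4 to 22 and 3 to 22. Both arms of miR-22 had probes of 18 and 19 nt, which reached bases 5 and 4 of the arm. miR-21-3p had 4 short probes of 12, 13, 14 and 15 nt, the longest of which reached base 8, the last of the seed.

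The 5 arrays were on 1 slide. Between 292 and 317 mouse miRNAs were detected on an array, 277 on all 5, and 307 on at least 2, which were tested. The summed mouse signal was 181794 on flagellin 3 and between 204752 and 234462 on the other arrays. Flagellin 3 was alone in its column of the slide, flagellin 1 and 2 shared another and both medium arrays a further one, so column and treatment cannot be told apart. Of 8 myeloid and haematopoietic miRNAs, 6 were detected on all 5 arrays, among them miR-223-3p and both arms of miR-142, and the list held 2.91% to 3.53% of the signal. Neural and liver miRNAs (miR-124-3p, miR-9-5p and miR-122-5p) were detected on none. Erythroid miRNAs held 0.0% to 0.00724%, endothelial 0.00246% to 0.0124%, fibroblast and smooth muscle 0.0% to 0.0226%, epithelial 0.0% to 0.00258% and muscle 0.00672% to 0.00816% of the signal, with the highest value of the first 3 lists on flagellin 2. The part of these lists in the values below was not tested.

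miR-21-5p gave the brightest mean signal of all mouse miRNAs, and miR-22-3p stood at place 12. Their passenger arms were detected on all 5 arrays too, at places 122 (miR-22-5p) and 135 (miR-21-3p) by mean signal. The unit is the total gene signal, the background-subtracted intensity summed over the detected probes of a miRNA. Probes differ in how strongly they respond, so places and shares are of signal and not of molecules. In RNA from whole cultures, a change in the number of cells of a type and a change in the RNA of each cell cannot be told apart.

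**Figure D1:**
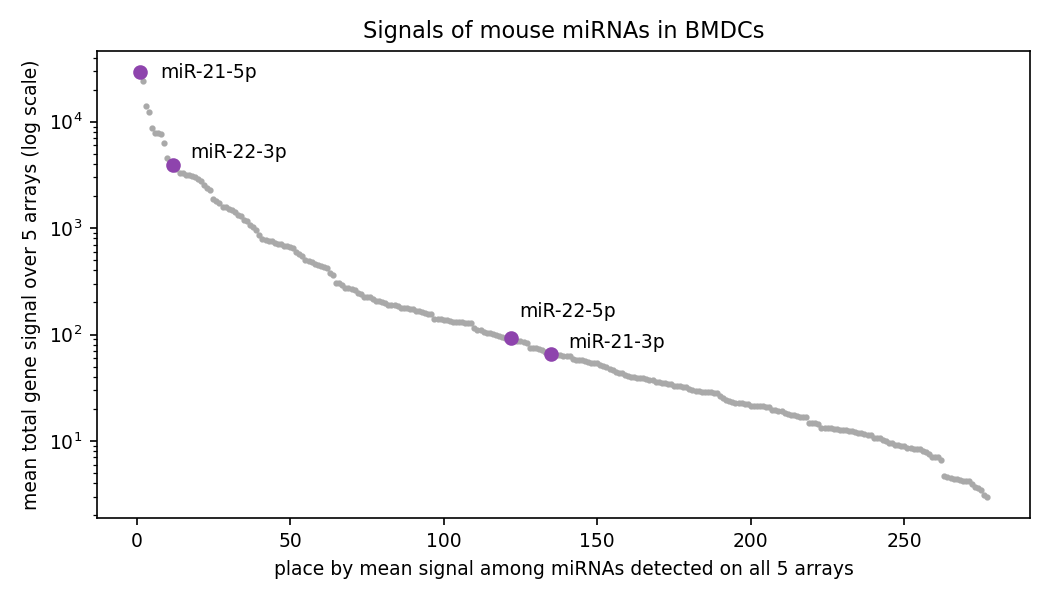
Mean total gene signal over 5 arrays (log scale) of the 277 mouse miRNAs detected on every array, against their place by that signal, 1 point per miRNA. The arms of miR-21 and miR-22 are purple, with miR-21-5p at place 1, miR-22-3p at 12, miR-22-5p at 122 and miR-21-3p at 135.

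The total gene signal of miR-21-5p was 33532, 34155 and 21574 on flagellin arrays 1 to 3 and 30649 and 26494 on medium arrays 1 and 2. This was 14.5%, 14.6% and 11.9% of the summed mouse signal after flagellin and 13.3% and 12.9% in medium. The share was highest on flagellin 1 and 2 and lowest on flagellin 3, so the groups overlapped. miR-21-5p ranked first on 4 arrays and second on flagellin 3, where miR-3963 was 1.06-fold brighter. On the other arrays miR-21-5p exceeded miR-3963 by 1.53-fold and 1.55-fold (flagellin 1 and 2) and by 1.03-fold and 1.07-fold (medium 1 and 2), so the order of this pair was within the spread between arrays.

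The signal of miR-22-3p was 4756, 4525 and 2966 after flagellin and 3858 and 3616 in medium. It made up 2.05%, 1.93% and 1.63% of the signal after flagellin and 1.67% and 1.77% in medium. Again flagellin 1 and 2 were highest and flagellin 3 was lowest. Its place was 12 or 13 on every array. miR-16-5p stood just above it in the mean and let-7a-5p just below, and let-7a-5p was the brighter of the pair on flagellin 3 (3028) and marginally on medium 1 (3860).

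miR-22-5p, the passenger arm, had signals of 111, 98.3 and 69.7 after flagellin and 95.3 and 87.4 in medium, which overlapped. Its share was 0.0479%, 0.0419% and 0.0384% against 0.0413% and 0.0427%. Its place ran from 114 to 124, between miR-125b-5p and miR-18a-5p in the mean, each of which was brighter than miR-22-5p on some arrays and dimmer on others.

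For miR-21-3p the signal was 68.7, 72.0 and 58.5 after flagellin and 68.1 and 59.6 in medium. The share was 0.0297%, 0.0307% and 0.0322% after flagellin and 0.0295% and 0.0291% in medium. It was the only arm of the 4 whose share was higher on every flagellin array than on both medium arrays, which held for 9.75% of the 277 miRNAs detected on all arrays. The exact permutation test of the log2 share over arrays, two-sided and with a smallest possible p of 0.1, gave p = 0.2 for miR-21-3p, 0.8 for miR-21-5p, 0.5 for miR-22-3p and 0.9 for miR-22-5p. Its place ran from 131 to 143, and its neighbours in the mean were miR-467a-5p and miR-3081-5p.

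The order of the dim arms depended on the weight given to spots. Each probe of miR-21-3p was printed in 10 spots and each probe of the other 3 arms in 20, and the deposited total probe signal was 0.192 to 0.193 times the mean spot signal for probes with 10 spots but 0.383 to 0.387 times for probes with 20. Summed from mean spot signals instead, the mean share of miR-21-3p was 0.0598% and its mean rank 107.2, ahead of miR-22-5p at 0.0420% and 123.6. Both this sum and the total gene signal add more probes for miR-21-3p than for miR-22-5p, so neither compares the arms per probe. All probes of the 4 arms were in the total gene signal on all 5 arrays, so the values within an arm compare arrays in the same way under either sum. The 4 arms together held 16.6%, 16.6% and 13.6% of the mouse signal after flagellin and 15.0% and 14.8% in medium.

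No arm of miR-21 or miR-22 passed the test between flagellin and medium. Each array was scaled to its 75th percentile over the miRNAs detected on all arrays, and values were compared on the log2 scale in limma. The scaled value of miR-21-5p was 6.90, 6.86 and 6.68 after flagellin and 6.76 and 6.75 in medium, a difference of 0.06 (SE 0.10) and an adjusted p of 0.891 in limma. The 95% confidence interval ran from 0.871-fold to 1.24-fold. Flagellin 3 lay below both medium arrays and the other flagellin arrays above them. The sign of this difference turned under quantile normalization (-0.0976) and under scaling to 4 reference miRNAs (-0.000868).

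For miR-22-3p the scaled values were 4.08, 3.95 and 3.82 after flagellin and 3.77 and 3.88 in medium. Its difference of 0.12 (SE 0.11, limma adjusted p = 0.859) was the largest of the 4 arms, with an interval from 0.894-fold to 1.33-fold. Flagellin 3 fell between the medium arrays, and the other flagellin arrays lay above both.

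miR-22-5p had -1.34, -1.58 and -1.59 after flagellin and -1.57 and -1.49 in medium, and only flagellin 1 exceeded both medium arrays. The difference was 0.03 (SE 0.11, limma adjusted p = 0.966), with an interval from 0.833-fold to 1.24-fold. It was -0.0324 under scaling to the 4 reference miRNAs.

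miR-21-3p had -2.03, -2.02 and -1.85 after flagellin and -2.05 and -2.05 in medium, a difference of 0.08 (SE 0.09, limma adjusted p = 0.859) with an interval from 0.896-fold to 1.25-fold. All 3 flagellin arrays were above both medium arrays, flagellin 1 and 2 by a small margin and flagellin 3 by a larger one. Over arrays the exact permutation test gave p = 0.5 for both arms of miR-21, 0.4 for miR-22-3p and 1.0 for miR-22-5p (two-sided, smallest possible p = 0.1).

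**Figure D2:**
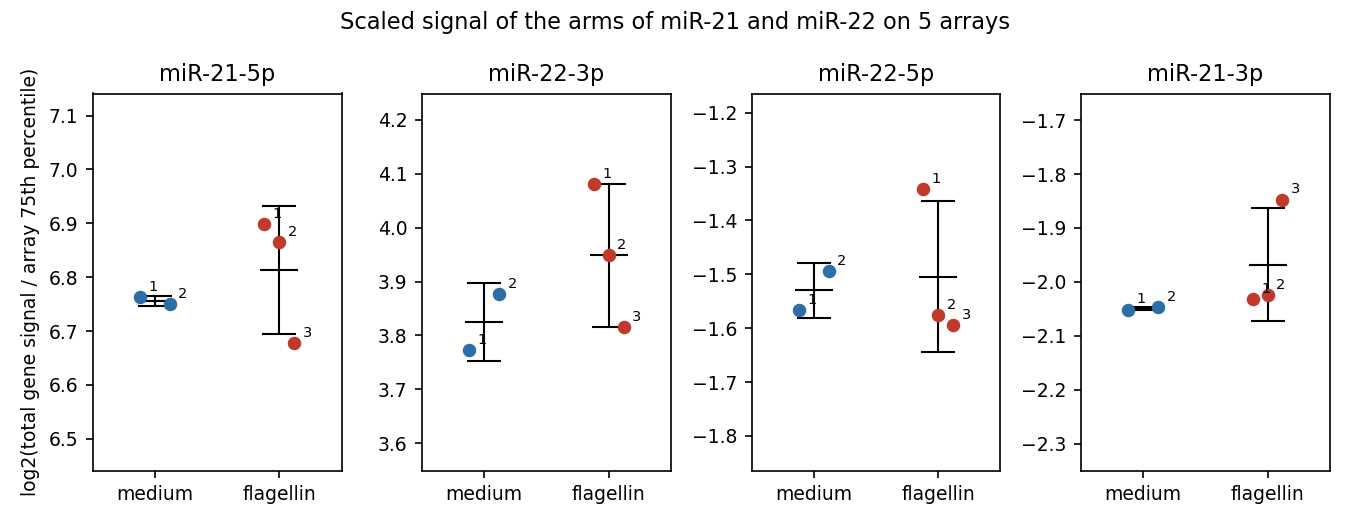
Scaled signal (log2 of total gene signal over the array's 75th percentile) of each arm on 2 medium (blue) and 3 flagellin (red) arrays, numbered by replicate, with group means and SDs as black bars. All panels span the same height, and only for miR-21-3p do the groups not overlap.

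Thus 0 of 4 arms were called, where 2 of the 307 miRNAs tested were (miR-466i-3p and miR-5112; 0.651% of those tested), and 1 of 4 arms had every flagellin value above medium, where 11.4% of the 307 did. None had every flagellin value below medium, where 8.79% did. At an unadjusted p under 0.05 in limma, 0 of the 4 arms and 18 of the 307 miRNAs passed. The median difference of all 307 was 0.01. Over the 4 arms the 95% intervals reached from 0.833-fold to 1.33-fold.

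The spread of the arms within groups was not large beside that of other miRNAs. The pooled SD within groups was 0.10 for miR-21-5p, 0.12 for miR-22-3p, 0.12 for miR-22-5p and 0.09 for miR-21-3p, against a median of 0.13 over the 277 miRNAs detected on all arrays. Single arrays moved the differences. Without flagellin 3 the log2 difference was 0.13 for miR-21-5p, 0.19 for miR-22-3p, 0.07 for miR-22-5p and 0.02 for miR-21-3p, and none passed limma's test. Without flagellin 1 the difference of miR-21-5p was 0.01, that of miR-22-3p 0.06 and that of miR-22-5p -0.06.

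miR-21 is often counted among the miRNAs that respond to Toll-like receptors, together with miR-155, miR-146a and miR-132. Of a list of 17 such miRNAs, both arms of miR-21 included, 11 had detectable signal on all 5 arrays, and the other 6 had it on none. Among the 9 tested besides miR-21, 0 passed after adjustment in limma, 3 had an unadjusted p under 0.05, 4 were above medium on every flagellin array and 0 below. Of all 307 miRNAs tested, 18 had an unadjusted p under 0.05 in limma, 11.4% were above medium on every flagellin array and 8.79% below. The 3 list members under 0.05 were miR-155-5p (0.35), miR-146a-5p (0.29) and miR-132-3p (0.35), each with a limma adjusted p of 0.650. The median log2 difference of the 9 was 0.05, and those of miR-21-5p and miR-21-3p were 0.06 and 0.08. Whether the arms of miR-21 differed from these miRNAs was not tested.

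**Figure D3:**
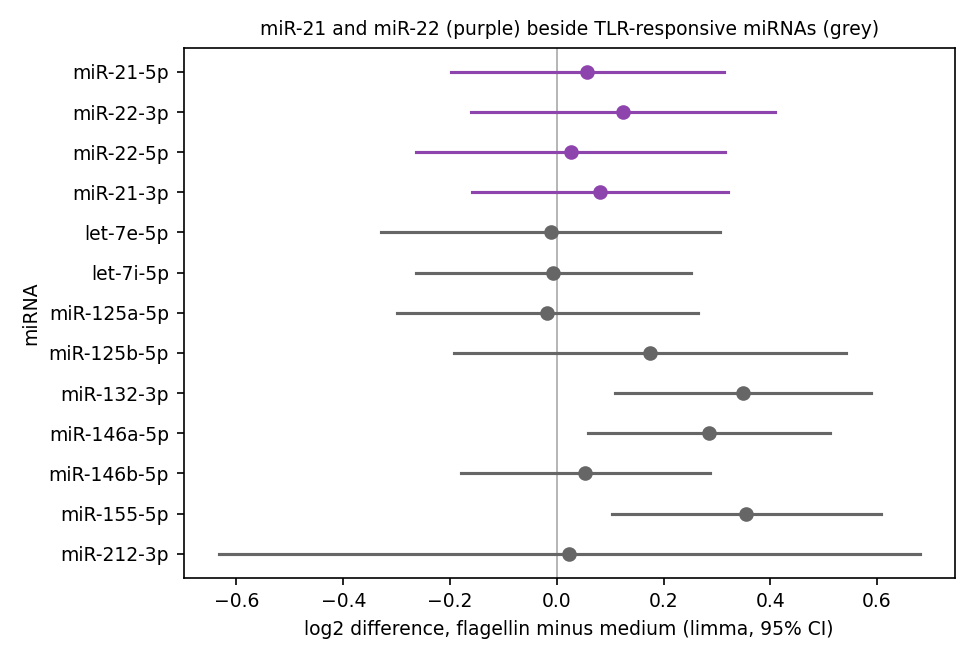
Log2 difference between flagellin (3 arrays) and medium (2 arrays) from limma with its 95% confidence interval, for the arms of miR-21 and miR-22 (purple) and the 9 other tested miRNAs of the Toll-like receptor list (grey). All 4 purple intervals cross 0, and those of miR-155-5p, miR-146a-5p and miR-132-3p do not before adjustment.

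The guide arm was far brighter than the passenger arm in both hairpins on every array. The 5p signal of miR-21 was 488-fold, 474-fold and 369-fold the 3p signal after flagellin and 450-fold and 445-fold in medium. The 3p signal of miR-22 was 42.9-fold, 46.0-fold and 42.5-fold the 5p signal after flagellin and 40.5-fold and 41.4-fold in medium. These ratios compare different probes and are not ratios of molecules. Summed from mean spot signals, which gives probes with 10 and 20 spots equal weight, the miR-21 ratio ran from 184-fold to 244-fold and the miR-22 ratio was unchanged. miR-21-3p had more probes than miR-21-5p, and both sums add them all, so neither gives a ratio of means per probe.

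Arms were paired only where their names differ in nothing but the ending 5p or 3p. In 32 such hairpins both arms were detected on all 5 arrays. The 5p arm was the brighter in 15 of them, as in miR-21, and the 3p arm in 17, as in miR-22. The median ratio of the brighter arm to the dimmer was 12.8-fold and the highest, of miR-23a, 1698-fold. Among these 32, miR-21 had the third highest ratio and miR-22 the ninth (the third and the seventh from mean spot signals). Numbered arms were not paired, so the places do not cover hairpins such as miR-24 (miR-24-3p at a mean signal of 8654, miR-24-1-5p at 11.4). Nor do they cover hairpins with an arm that was not detected, such as miR-223 (miR-223-3p at 3049, miR-223-5p detected on no array).

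The ratio of the arms was compared between groups in limma, where the scaling of an array cancels. For miR-21 the log2 ratio of the guide to the passenger arm was 8.78 ± 0.22 (SD, n = 3) after flagellin and 8.81 ± 0.01 (SD, n = 2) in medium. The difference was -0.02 (SE 0.15, 95% interval 0.754-fold to 1.28-fold, limma adjusted p = 0.972). Flagellin 3 had the lowest ratio of all arrays while flagellin 1 and 2 had the highest, and without flagellin 3 the difference was 0.10.

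For miR-22 the log2 ratio was 5.45 ± 0.06 (SD, n = 3) after flagellin and 5.36 ± 0.02 (SD, n = 2) in medium. All 3 flagellin arrays were above both medium arrays. The difference was 0.10 (SE 0.10, 95% interval 0.905-fold to 1.27-fold, limma adjusted p = 0.795), which did not pass the test. The exact permutation test over arrays gave p = 0.2 for miR-22 and 1.0 for miR-21. Over all 32 hairpins 0 passed after adjustment in limma (0.0%) and 3 had an unadjusted p under 0.05, while 9.38% had every flagellin ratio above medium and 9.38% every one below. Without flagellin 3, 2 hairpins passed, miR-574 and miR-652.

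**Figure D4:**
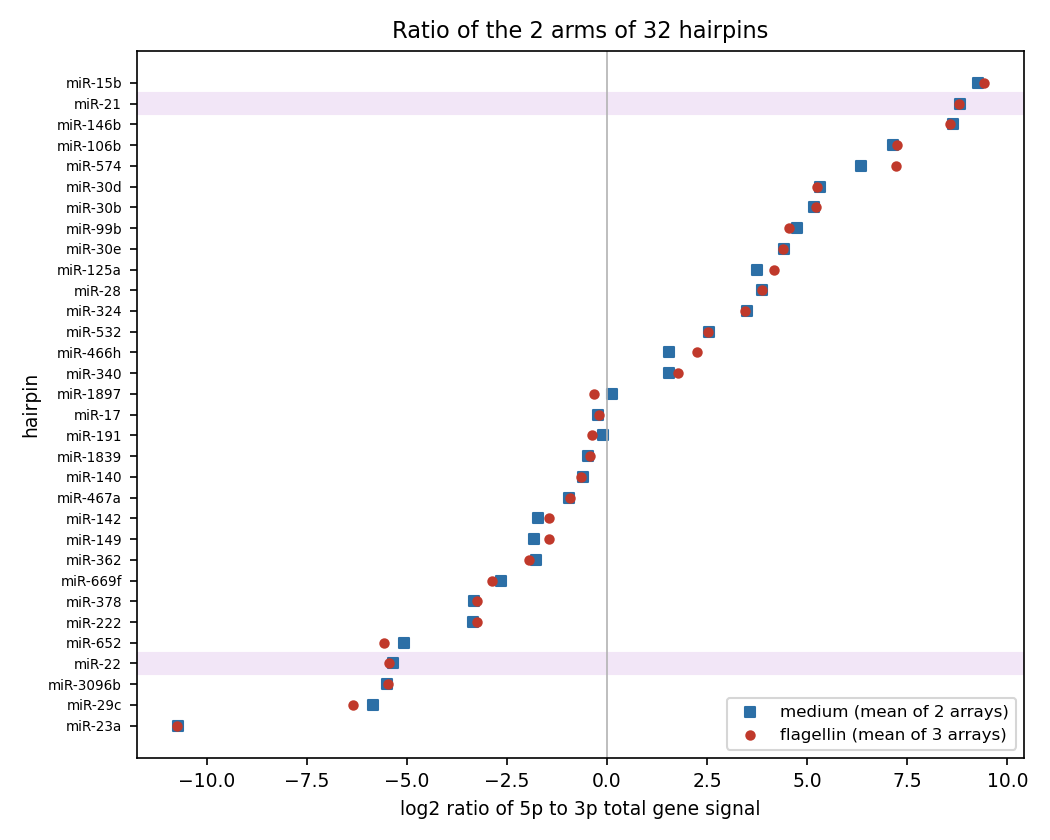
Mean log2 ratio of 5p to 3p total gene signal after flagellin (red circles, 3 arrays) and medium (blue squares, 2 arrays). Shown are the 32 hairpins paired by name with both arms detected on all 5 arrays. Values right of 0 have the brighter 5p arm. In the shaded rows miR-21 lies at 8.78 and 8.81, and miR-22, whose 3p arm is brighter, at 5.45 and 5.36 left of 0.

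Every arm gave more signal on its longer probe, on every array. For miR-21-5p the 20 nt probe was 2.52-fold, 2.22-fold and 2.47-fold brighter than the 19 nt probe after flagellin and 2.11-fold and 2.44-fold in medium. The corresponding mean step from 18 to 19 nt was 1.86-fold for miR-22-3p and 1.58-fold for miR-22-5p. For miR-21-3p the steps from 12 to 13, 13 to 14 and 14 to 15 nt were 2.08-fold, 3.53-fold and 1.48-fold. Over 344 such steps of 1 base in 272 miRNAs the median was 1.68-fold, with quartiles of 1.20 and 2.71, and 88.4% were above 1. As a fold step, the third base of the run in capitals above therefore added least for miR-21-3p, and the second added most.

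The 13 to 14 nt step of miR-21-3p was the only one of 6 that was higher on every flagellin array (3.40, 4.04 and 3.66) than on both medium arrays (3.32 and 3.30), with p = 0.2 in the exact permutation test. Of the 344 steps, 19.2% had every flagellin value above medium. Its 14 and 15 nt probes had every flagellin value above medium, with log2 differences of 0.14 and 0.08 (exact permutation p = 0.2 for each). This was so for 2 of the 10 probes of the 4 arms and for 12.1% of the 622 probes of miRNAs detected on all arrays. Its 12 and 13 nt probes overlapped between groups, with differences of -0.02 and -0.02 (exact permutation p = 0.9 and 0.7). The mean spot signal of the 12 nt probe was only 13.9 to 18.9, where the SD between spots was 17.3% to 27.5% of the mean.

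The probes of each of the other arms overlapped between groups. For miR-21-5p the log2 differences were 0.004 (19 nt) and 0.08 (20 nt), for miR-22-3p 0.12 (18 nt) and 0.13 (19 nt), and for miR-22-5p -0.005 (18 nt) and 0.05 (19 nt), with exact permutation p between 0.4 and 1.0. Both probes of miR-22-3p thus differed by nearly the same amount. With a smallest possible p of 0.1, the exact permutation test could not have reached 0.05 for any probe. No spot of any arm was saturated, and the brightest, of the 20 nt probe of miR-21-5p, reached a mean of 73348.

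**Figure D5:**
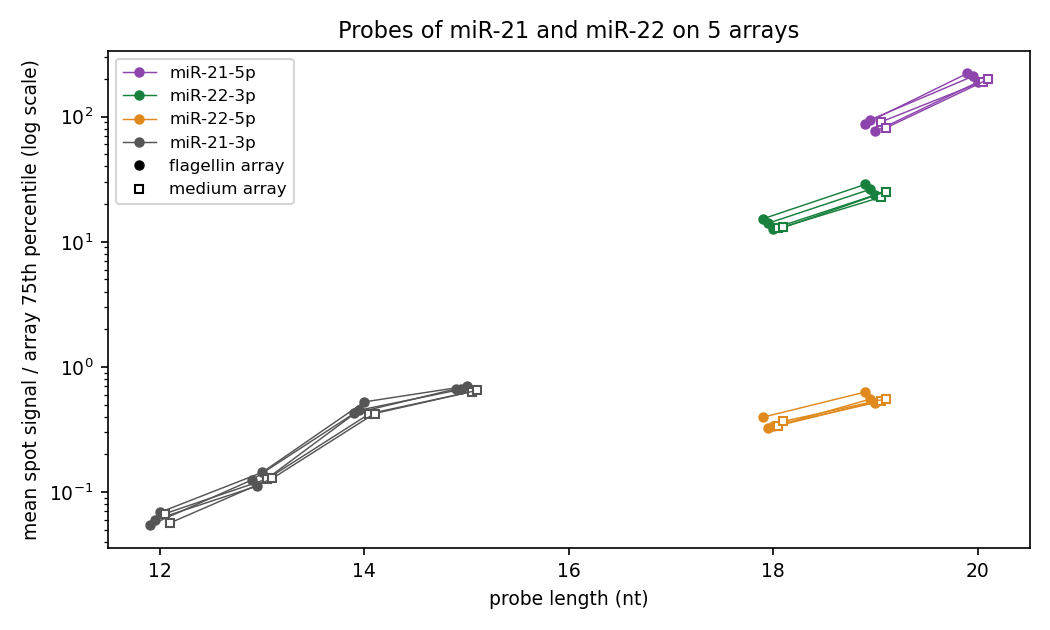
Mean spot signal of each probe over the array's 75th percentile (log scale) against probe length in nt, offset slightly by array, with 1 line per array; filled circles are flagellin and open squares medium. Every line rises with length, from 1.48-fold to 3.53-fold per base on average, and the lines of the 5 arrays lie close together within each arm.

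For each arm, the 3 miRNAs whose pattern over the 5 arrays was most like it were picked from 276 others. They lie below the median by that choice, and how close the best of 276 lie for other miRNAs was not examined. Likeness was the root mean square difference between scaled log2 values after each miRNA was centred on its own mean over the 5 arrays, which share 1 slide and 1 scaling. The values most like miR-21-5p were those of miR-362-5p (0.02), miR-338-3p (0.03) and miR-26b-5p (0.03), against a median of 0.17 over the 276 other miRNAs. For miR-22-3p they were miR-15b-5p (0.02), miR-185-5p (0.02) and miR-467a-5p (0.03), with a median of 0.18.

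The passenger arm miR-22-5p was most like let-7g-5p (0.02), let-7i-5p (0.03) and miR-138-5p (0.03), with a median of 0.16. miR-21-3p was most like let-7c-5p (0.03), miR-5111-5p (0.04) and miR-466c-5p (0.04), with a median of 0.13. Among the 4 arms, miR-21-5p, miR-22-3p and miR-22-5p lay 0.06 to 0.07 from each other, and miR-21-3p lay 0.14 to 0.15 from these 3. miR-21-3p was therefore farther from its own guide arm than miR-21-5p was from either arm of miR-22, which describes 5 arrays and was not tested.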

How the data were processed

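The authors purified total RNA from the BMDCs with the mirVana kit, labelled it with Cy3 and hybridised it to 1-colour Agilent mouse miRNA arrays. Intensities were extracted, per the submitters' processing notes and the deposited file headers, with Agilent Feature Extraction 10.7. In the deposited files each spot has a processed intensity, and each miRNA has its total gene signal with a call of whether it was detected. A total gene signal is the sum over detected probes of the total probe signal, where a probe is detected if it exceeds 3 of its errors. This rule gave back 5895 of the 5895 deposited values (tolerance 0.001), and 0.1 stands for a miRNA none of whose probes was detected. The authors also deposited log2 values, which differ from the log2 of the total gene signals by a constant of 6.55 to 6.91 on each array and were used as an alternative.

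For scaling, each array's total gene signals were divided by their 75th percentile, taken over the 277 mouse miRNAs that were detected everywhere. Scaled values under 0.0121 were set to that floor before log2. Control spots and the 57 miRNAs of viruses were not used. Flagellin (3 arrays) and medium (2 arrays) were compared with limma 3.58.1 in R 4.3.3 without covariates, with 3 residual degrees of freedom and Benjamini-Hochberg adjustment over the 307 miRNAs detected on at least 2 arrays, or over the 32 hairpins for arm ratios; the threshold was an adjusted p of 0.05. The exact permutation test took the absolute difference of means over the 10 splits of 3 arrays against 2. Probe signals were means over spots that were not outliers. Precision is limited by the number of arrays. Scripts used Python 3.11.15, numpy 2.4.6, pandas 2.3.3 and matplotlib 3.10.9. The limma step was tested on simulated data, where the changes were larger than any difference of the arms. That test does not cover differences of the size seen here.

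The arms of miR-21 and miR-22, and the lists of Toll-like receptor and cell type miRNAs, were chosen with earlier results of these data known. Besides the 4 arms, the miRNAs named are the 3 most like each arm and its neighbours in signal. Also named are every miRNA or hairpin past the threshold, and list members where a result turned on them. miR-23a, miR-24 and the cell type miRNAs were named in addition. Replicate numbers were not used as pairs in the main comparison, and the labels do not say whether they mark pairs. The deviations of flagellin and medium arrays of the same number from their group means correlated at -0.04 (number 1) and -0.08 (number 2) over 277 miRNAs. The deviations of the 2 medium arrays mirror each other, so these values are not separate checks and cannot decide on pairing. Alternatives covered scaling, the deposited values, detection, background, filter, floor, test, blocks and each array left out.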

Additional observations from a re-analysis of the deposited data

How the results depend on the processing

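Over 194 alternative values of 26 results, 160 kept their direction and their side of the threshold or stayed near the reported value, 14 turned direction and 20 counts, shares or ranks moved. No alternative brought an arm of miR-21 or miR-22 past limma's threshold, and the lowest adjusted p was 0.249 for miR-21-5p, 0.281 for miR-22-3p, 0.600 for miR-22-5p and 0.570 for miR-21-3p. The direction of miR-22-3p and miR-21-3p held under all 21 alternatives run for each (0.02 to 0.30 and 0.02 to 0.26). That of miR-21-5p turned with quantile normalization (-0.0976) and with 4 reference miRNAs (-0.000868), and that of miR-22-5p with the reference miRNAs (-0.0324). Leaving out single arrays, the difference of miR-22-5p ran from -0.0553 to 0.0711, turning without flagellin 1 (-0.0553) and without medium 1 (-0.0101). The 75th percentile over all mouse miRNAs moved the median of the 307 miRNAs to 0.19 and the arms to between 0.21 and 0.30.

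The arm ratio difference of miR-21 turned with normexp and quantile normalization (0.0501), and ran from -0.0981 to 0.104 with each array left out. With the replicate block, which drops flagellin 3 because its number has no medium partner, it was 0.104, and the arms differed by 0.13 (miR-21-5p), 0.19 (miR-22-3p), 0.07 (miR-22-5p) and 0.02 (miR-21-3p). With the row of the slide as a block they differed by 0.07, 0.12, 0.01 and 0.07, and with the column as a random block by 0.04, 0.11, 0.02 and 0.10.

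The count of miRNAs past the threshold was 2. It fell to 0 under scaling by the 75th percentile of all miRNAs, without scaling, with quantile normalization, with sums of mean spot signals over all probes in place of detected total probe signals, with normexp and quantile normalization together, with the replicate block and with the slide row block, where 14, 8, 19, 13, 24, 39 and 15 miRNAs had an unadjusted p under 0.05 in limma. It was 1 among miRNAs detected on all 5 arrays, with limma's trend and with the slide column as a random block, 4 with the authors' values and with the floor divided by 10, and 0 to 1 with each array left out. The count of hairpins was 0 to 2 with each array left out. With sums of mean spot signals the share of miR-21-3p was 0.0598% and its mean rank 107.2, against 0.0302% and 137.4. All its probes were detected on all 5 arrays, so this move did not come with the detection rule. Both sums added the same probes. The move came with the weight given to the probes of miR-21-3p, which had 10 spots each where those of the other arms had 20.

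Among probes with differences near 0, the 19 nt probe of miR-21-5p turned with outlier spots kept (-0.0152) and without scaling (-0.0217). The 18 nt probe of miR-22-5p turned with mean minus background signals (0.0331) and with outliers kept (0.0102), and the 12 and 13 nt probes of miR-21-3p with mean minus background signals (0.135 and 0.0834). Other than where the construction shows it, the cause was not tested.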
